A study of Astyanax mexicanus with 96 samples.

Results

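The genes described here are the Vegf ligands, their receptors and a set of genes that mark the endothelium, the cell layer that lines blood vessels and the inside of the heart. They were chosen by gene symbol in the deposited annotation, which gave 11 of 27420 genes: the ligands vegfaa, vegfab and vegfc, the receptors kdr, kdrl, flt1 and flt4, the angiopoietin receptor tek and its partner tie1, and the cell surface genes cdh5 and pecam1. All 11 reached a level of 1 CPM, a count scaled to a library total of 1000000, in some library and entered the tests. The data are 3′ RNA-seq read counts from single heart ventricles of Astyanax mexicanus, 96 libraries in all.

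The surface fish (SF) of this species live in rivers, and the Pachón cavefish (PC) are blind fish of a cave. In each population, ventricles were collected 6 h and 1, 3, 7, 14 and 30 days after cryo-injury (labelled hpci for hours and dpci for days), in which a cold copper probe was held to the ventricle's tip. Sham ventricles, touched with a probe at room temperature, were collected 6 h, 1 day and 3 days after the operation (hps and dps). Each operated group had 5 ventricles, and the uninjured group of each population had 3. The study's methods give the age of these fish as 2 years, the labels name no sex, batch or clutch, and no group carried a transgene or received a drug. Reads of both populations were aligned to the surface fish genome, so a difference between SF and PC and a difference in how well reads aligned cannot be told apart.

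In vertebrates, Vegfa binds its receptor Vegfr2 on endothelial cells and drives them to divide, migrate and sprout, while Flt1 binds Vegfa tightly, signals weakly and so limits the free ligand. Fish carry duplicate Vegfa genes, vegfaa and vegfab, and the Vegfr2-type receptors kdr and kdrl. Vegfc and its receptor Flt4 act mainly in lymphatic vessels and early sprouts, Tek binds angiopoietins and keeps vessels stable together with Tie1, and VE-cadherin (cdh5) and Pecam1 hold neighbouring endothelial cells together. In bulk RNA, fewer cells of a type and less RNA per cell cannot be told apart.

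Totals ran from 672292 to 2586602 counts per library, with a median of 1687721.5, and 4 libraries were below 1000000. None of the 96 libraries went against its population label in a check on 60 genes each way. A result is said to have passed at an adjusted p under 0.05 in edgeR's quasi-likelihood test, with Benjamini-Hochberg adjustment over 18763 genes. The fit held 1 factor of unwanted variation (RUVg), and this factor differed between the groups: its mean was higher in SF than in PC in 10 of 10 conditions, with no overlap between libraries in 9. It also differed with injury and time. In SF it ran from -0.103 to -0.055 at 7 dpci and from 0.066 to 0.157 in uninjured ventricles. In PC it ran from -0.203 to -0.149 at 7 dpci and from -0.03 to -0.013 in uninjured ventricles. Where groups do not overlap in the factor, it and their difference are hard to tell apart. The value of the same fit without the factor is therefore given beside most member results below. With the factor, the median log2 difference of all genes exceeded 0.1 between SF and PC in uninjured ventricles (0.101) and at 7, 14 and 30 dpci (0.13, 0.133 and 0.126).

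The members covered a wide range of levels. The libraries read the 3′ end of each transcript, so a count does not grow with the length of a gene, but it does depend on where the gene's model ends, and 6 of the 11 members carry a model made by the authors (kdrl, tek, pecam1, cdh5, flt1 and vegfc). The order of levels is therefore a description. Over the 96 libraries the mean level was 130.4 CPM for cdh5, 65.9 for kdr, 52.0 for tek, 41.0 for vegfaa, 25.4 for kdrl, 19.3 for tie1, 13.2 for vegfab, 12.2 for flt1 and 7.86 CPM for pecam1. Vegfab and flt1 are neighbours in this order, and their standard deviations over libraries, 10.6 and 6.12 CPM, exceed the gap between them. Flt4 at 0.681 CPM and vegfc at 0.407 CPM were sparse, so their tests carry little weight. Cdh5 lay above 96.2% of the genes tested in mean level and vegfc above 28.9%.

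**Figure D1:**
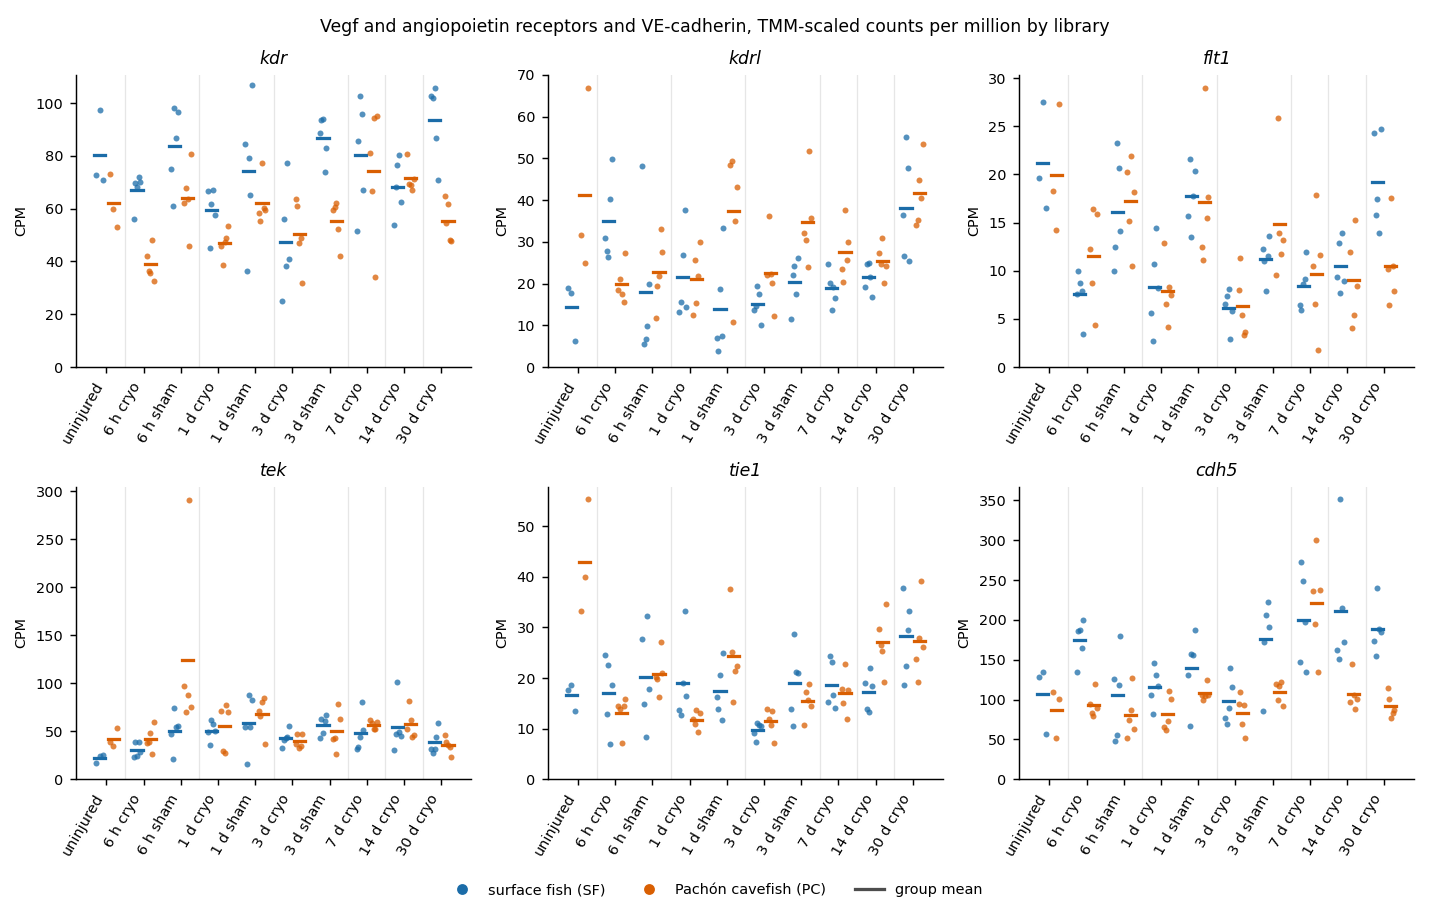
TMM-scaled counts (CPM, vertical axes) of kdr, kdrl, flt1, tek, tie1 and cdh5 in each library (points) with the group mean (bars), for SF and PC in uninjured, cryo-injured (cryo) and sham ventricles. Cdh5 lies higher in SF than in PC with no overlap at 6 h, 14 days and 30 days after cryo-injury, and 1 PC library at 290.8 CPM stands apart for tek 6 h after the sham operation.

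Between the populations, compared in 10 conditions, 14 of 110 member results passed (12.7%), against 8.48% of results over all genes. Of these, 10 were higher in SF and 4 lower, where 4.49% and 3.99% of all results passed in each direction. Cdh5 alone gave 7 of the 14, all higher in SF, and no other member passed in more than 1 condition. Without the factor 24 of 110 member results passed, against 8.25% over all genes, and 6 passed in both fits: cdh5 in 3 conditions, kdr, tek and flt4 in 1 each. When only the groups compared were fitted, 1 of 110 member results passed, against 2.74% of the results of all genes in those same fits. These fits kept the factor as estimated over all 96 libraries. It did not overlap between SF and PC in 9 of 10 conditions, so with few libraries they can hardly tell it from the population. A call between the populations that was lost there is therefore not shown to be absent. The same holds for other comparisons whose groups do not overlap in the factor. Among these are 7 dpci against uninjured and 30 against 7 dpci in both populations, and SF at 3 dpci against 3 dps. A call described below as lost in an alternative did not pass there. The alternatives were the fit without the factor, 2 factors, DESeq2's size factors, no filter, a stricter filter (at least 10 counts in at least 5 libraries), a replicate block, each of 5 replicate numbers left out of every group that held it, only the groups compared, and DESeq2. Uninjured libraries were numbered 1, 2 and 3 in SF and 1, 3 and 5 in PC, so leaving out a number did not always remove an uninjured library.

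Cdh5 encodes VE-cadherin, the main adhesion molecule between endothelial cells, and it was higher in SF in both fits at 6 hpci, 14 dpci and 30 dpci. Its log2 difference was positive in all 10 conditions with the factor (0.40 to 1.75) and in 9 of 10 without it (-0.14 to 1.03). At 30 dpci the SF ventricles had 173.3, 154.2, 240.4, 188.0 and 184.8 CPM of cdh5, against 114.4, 100.5, 76.9, 82.8 and 87.3 CPM in the PC ventricles. Every SF library exceeded every PC library, and the log2 difference was 1.75 (SE 0.31, adjusted p = 2.07e-05; 1.03 without the factor, adjusted p = 0.00349). At 14 dpci cdh5 stood at 162.5, 151.3, 352.1, 214.9 and 172.7 CPM in SF, against 96.7, 145.0, 106.3, 88.2 and 100.8 CPM in PC, a log2 difference of 1.44 (SE 0.27, adjusted p = 3.49e-05; 0.96 without the factor, adjusted p = 0.00557). At 6 hpci the values were 134.5, 186.1, 186.9, 165.0 and 200.1 CPM in SF, against 95, 83.5, 79.9, 119.8 and 89.0 CPM in PC, a log2 difference of 1.45 (SE 0.28, adjusted p = 6.76e-05; 0.90 without the factor, adjusted p = 0.0107). The groups did not overlap at either of these times.

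The cdh5 difference was less firm elsewhere. It passed with the factor and not without it at 6 hps (0.94 with, 0.40 without), 1 dps (0.99 with, 0.38 without), 3 dps (1.18 with, 0.68 without) and 1 dpci (1.11 with, 0.49 without). At 7 dpci cdh5 averaged 200.1 ± 60.5 CPM in SF and 220.8 ± 61.4 CPM in PC (SD, n = 5 each) and at 3 dpci 98.2 ± 28.7 CPM in SF and 83.6 ± 22.7 CPM in PC, and passed in neither fit at these times. The 4 calls that rest on the factor were each lost in 3 to 5 of 13 alternatives. When only the groups compared were fitted, with the factor kept, cdh5 lost its calls at 6 hpci, 14 dpci and 30 dpci. The log2 values were 1.19, 1.0 and 1.41, with adjusted p-values of 0.488, 0.0897 and 0.964. As described above, these fits can hardly tell the factor from the population. Leukocyte markers differed with the population at 30 dpci: 14 genes matched to that list summed to 728.5 to 1059 CPM in SF, against 1137 to 1631 CPM in PC, with mpeg1.1 and ptprca not past the filter. Cardiomyocyte markers, 5 genes past the filter without actc1a, nppa, tnnt2a, ttn.2 and vmhc, summed to 35260 to 57486 CPM in SF, against 31946 to 47896 CPM in PC. Their part in the cdh5 difference was not tested.

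Kdr, a Vegfr2-type receptor, was also higher in SF at 6 hpci, at 55.9, 69.7, 68.1, 71.9 and 70.2 CPM in SF against 41.9, 36.3, 35.6, 48.0 and 32.5 CPM in PC. The groups did not overlap and the log2 difference was 0.71 (SE 0.24, adjusted p = 0.0491; 0.79 without the factor, adjusted p = 0.00731). It was lost in 5 of 13 alternatives (no filter, only the groups compared, and without replicate 2, 3 or 5). Kdr ranged from 0.63 to 0.96 (log2) over all 13, with an adjusted p of up to 0.701. Of 7 marker lists of other cell types, 1 did not overlap between the populations at 6 hpci, the skeletal muscle markers. This list holds the creatine kinase genes ckma and ckmb, whose weight in the sum is described below for SF at 3 days. Its 12 genes summed to 3697 to 4372 CPM in SF and 1849 to 2924 CPM in PC. The part of these genes in the differences at 6 hpci was not tested. At 30 dpci kdr had 102.5, 101.8, 105.7, 86.6 and 70.9 CPM in SF and 64.6, 54.5, 61.7, 48.2 and 47.6 CPM in PC, again without overlap, and passed only without the factor (log2 0.75, adjusted p = 0.0123; 0.65 with it, adjusted p = 0.125). At 3 dps, kdr averaged 86.6 ± 8.46 CPM in SF and 55.4 ± 8.33 CPM in PC (SD, n = 5 each), did not overlap, and passed only without the factor (log2 0.65, adjusted p = 0.0309; 0.57 with it, adjusted p = 0.125).

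Kdrl, the receptor that carries most Vegfa signalling in the zebrafish embryo, was higher in SF in 6 of 10 conditions with the factor and in 1 of 10 without it. In uninjured ventricles kdrl had 19.0, 17.7 and 6.3 CPM in SF and 31.7, 25.0 and 66.9 CPM in PC, with no overlap, and passed only without the factor (log2 -1.52, adjusted p = 0.0344; -0.73 with it, adjusted p = 0.49). At 6 hpci it had 30.9, 27.9, 26.3, 40.2 and 49.9 CPM in SF and 18.4, 21.1, 17.5, 15.5 and 27.2 CPM in PC, and passed only with the factor (log2 1.47, SE 0.39, adjusted p = 0.00695; 0.82 without it, adjusted p = 0.131). Here 1 PC library reached into the SF range, and the call was lost in 4 of 13 alternatives (no factor, the stricter filter, only the groups compared, and without replicate 4). Kdrl ranged from 0.82 to 2.0 (log2) over all 13, with an adjusted p of up to 0.672. At 1 dps kdrl averaged 14.0 ± 12.1 CPM in SF and 37.3 ± 15.9 CPM in PC (SD, n = 5 each), and passed only without the factor (log2 -1.41, adjusted p = 0.0034; -0.67 with it, adjusted p = 0.377).

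Tie1, the partner of Tek, had 17.7, 18.7 and 13.4 CPM in uninjured SF ventricles against 33.3, 40.0 and 55.4 CPM in uninjured PC ventricles, without overlap, and passed only without the factor (log2 -1.37, adjusted p = 0.00812; -1.02 with it, adjusted p = 0.122). At 1 dpci tie1 averaged 19.0 ± 8.33 CPM in SF and 11.8 ± 1.73 CPM in PC (SD, n = 5 each), passed only with the factor (log2 0.95, SE 0.33, adjusted p = 0.0446; 0.64 without it, adjusted p = 0.15), and had a log2 difference of -0.05 when only these groups were fitted. This call was lost in 7 of 13 alternatives (no factor, the stricter filter, only the groups compared, and without replicate 1, 3, 4 or 5). Tie1 ranged from -0.05 to 1.61 (log2) over all 13, with an adjusted p of up to 1.0. Tek, the angiopoietin receptor, was lower in SF at 6 hps, at 46.8, 21.1, 74.1, 54.6 and 55.0 CPM in SF against 96.8, 70.2, 87.5, 290.8 and 74.8 CPM in PC, a log2 difference of -1.10 (SE 0.37, adjusted p = 0.0435; -1.29 without the factor, adjusted p = 0.00145). The groups overlapped, and the call was lost in 7 of 13 alternatives (2 factors, no filter, a replicate block, only the groups compared, and without replicate 1, 2 or 4). Tek ranged from -1.49 to -0.69 (log2) over all 13, with an adjusted p of up to 0.399. Without replicate 4 of every group, which held the PC library at 290.8 CPM, the tek difference was -0.72 (adjusted p = 0.219).

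Pecam1, an adhesion molecule of endothelial cells, platelets and leukocytes, had the widest log2 difference between populations of the 9 members with a mean above 5 CPM, in both fits. Uninjured ventricles had 26.8, 20.6 and 24.4 CPM of pecam1 in SF and 5.0, 4.16 and 1.65 CPM in PC. At 1 dps pecam1 had 11.3, 30.1, 12.2, 9.21 and 19.2 CPM in SF and 3.5, 0.616, 1.53, 8.33 and 1.54 CPM in PC. All SF libraries lay above all PC libraries in both conditions and at 3 dps. Pecam1 nevertheless passed in none of the 10 conditions with the factor, and in 6 of 10 without it. In uninjured ventricles it passed only without the factor (log2 2.71, adjusted p = 0.0034; 1.92 with it, adjusted p = 0.0949), and at 1 dps it passed only without the factor (log2 2.31, adjusted p = 0.000431; 1.48 with it, adjusted p = 0.108). At 3 dpci pecam1 averaged 3.8 ± 1.15 CPM in SF and 4.1 ± 2.4 CPM in PC (SD, n = 5 each) and passed in neither fit.

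**Figure D2:**
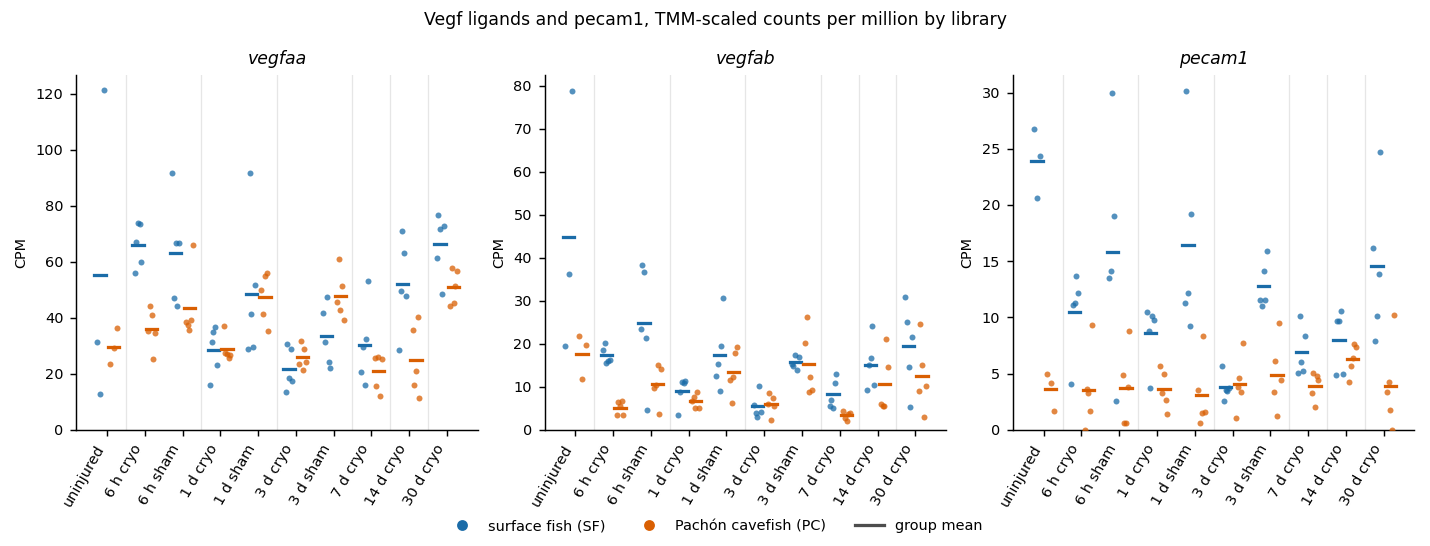
TMM-scaled counts (CPM, vertical axes) of vegfaa, vegfab and pecam1 in each library (points) with the group mean (bars), for SF and PC. Pecam1 lies between 20.6 and 26.8 CPM in uninjured SF and between 1.65 and 5.0 CPM in uninjured PC ventricles, and vegfab averages 44.9 CPM in uninjured SF and 3.33 CPM in PC 7 days after cryo-injury, its highest and lowest group means.

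The ligands vegfaa and vegfab passed in both fits in none of the 10 conditions. At 6 hpci vegfaa had 55.9, 66.9, 73.8, 73.5 and 59.7 CPM in SF and 35.2, 44.3, 41.0, 25.4 and 34.5 CPM in PC, with no overlap, and passed only without the factor (log2 0.87, adjusted p = 0.0411; 0.39 with it, adjusted p = 0.538). Vegfab at this time had 18.6, 20.1, 15.6, 15.9 and 16.2 CPM in SF and 3.35, 6.54, 5.47, 6.62 and 3.32 CPM in PC, also with no overlap, and passed only without the factor (log2 1.76, adjusted p = 0.0018; 0.99 with it, adjusted p = 0.184). At 3 dps vegfaa averaged 33.3 ± 10.9 CPM in SF and 47.9 ± 8.44 CPM in PC (SD, n = 5 each), and passed only with the factor (log2 -1.0, SE 0.33, adjusted p = 0.0399; -0.52 without it, adjusted p = 0.286). This call was lost in 10 of 13 alternatives (no factor, 2 factors, the stricter filter, a replicate block, only the groups compared, and without replicate 1, 2, 3, 4 or 5). Vegfaa ranged from -1.26 to -0.31 (log2) over all 13, with an adjusted p of up to 0.844. At 14 dpci the averages of vegfaa were 51.9 ± 16.3 CPM in SF and 24.8 ± 12.5 CPM in PC, and the gene passed only without the factor (log2 1.07, adjusted p = 0.0127; 0.67 with it, adjusted p = 0.192).

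Flt1, the receptor that holds Vegfa away from Vegfr2, averaged 7.55 ± 2.47 CPM in SF and 11.6 ± 5.06 CPM in PC at 6 hpci (SD, n = 5 each), and passed only with the factor (log2 -1.22, SE 0.41, adjusted p = 0.0409; -0.61 without it, adjusted p = 0.329). This call was lost in 9 of 13 alternatives (no factor, 2 factors, the stricter filter, a replicate block, only the groups compared, and without replicate 1, 2, 3 or 5). Flt1 ranged from -1.59 to -0.61 (log2) over all 13, with an adjusted p of up to 0.802. No other comparison of the populations passed for flt1 in either fit. Without the factor flt1 passed in 6 of its 38 results, all of other kinds. In that fit 0.25 to 8.36% of the results of all genes passed, by kind of comparison. In SF it averaged 21.2 CPM in uninjured ventricles, 8.42 at 7 dpci, 10.5 at 14 dpci and 19.2 at 30 dpci. Its 7 dpci libraries (5.95 to 11.9 CPM) overlapped neither the uninjured (16.5 to 27.5 CPM) nor the 30 dpci ones (13.9 to 24.7 CPM). With the factor neither of these comparisons passed. Sham ventricles of SF at 3 dps (7.88 to 13.6 CPM of flt1) also lay wholly below the uninjured ones, so low values were not particular to cryo-injury. The gene pan3 overlaps flt1 on the other strand, and since it is not stated whether counting used the strand, reads of these genes cannot be told apart.

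Flt4, the Vegfc receptor, was read in 12 of 48 SF libraries and 37 of 48 PC libraries, with 16 reads in SF and 95 in PC. At 6 hps no SF library held a read, against 5, 2, 1, 4 and 1 reads in PC. With 3 reads over the SF group as the floor that a count of 0 allows, flt4 was 4.12-fold lower in SF (edgeR adjusted p = 0.0386, and 0.0139 without the factor). This fold leaves out the counting error of the 13 PC reads, so the difference can be smaller. Leaving out any 1 replicate of every group ended this call, which was lost in 9 of 12 alternatives with an adjusted p of up to 0.349. The fitted difference of flt4 was negative in all 10 conditions, and it passed at 1 dps and 6 hpci only without the factor. The gene ergic1 overlaps flt4 on the other strand, with the same limit as for flt1. Vegfc, the ligand of Flt4, was read in 10 of 48 SF libraries, at up to 2 reads, and in 18 of 48 PC libraries, at up to 10 reads.

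**Figure D3:**
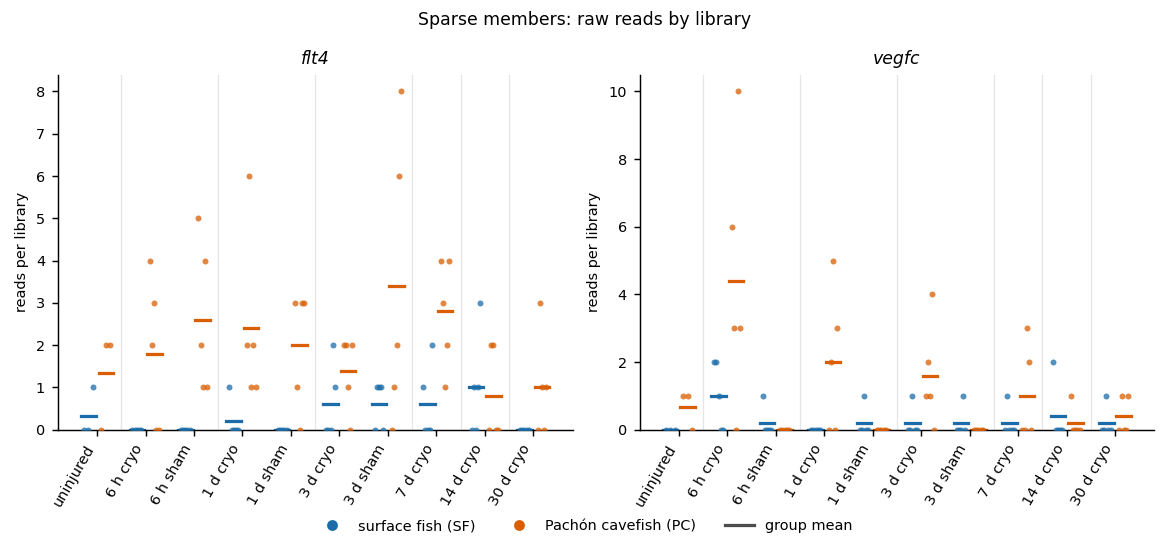
Raw reads per library (vertical axes) of flt4 and vegfc in SF and PC, with points for libraries and bars for group means. Flt4 has at most 3 reads in any SF library and up to 8 in PC, and vegfc reaches 10 reads in 1 PC library 6 h after cryo-injury, against none in PC 6 h after the sham operation.

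The response to cryo-injury was read against sham ventricles of the same time at 6 h, 1 day and 3 days, and against uninjured ventricles at 7, 14 and 30 days. Of 132 member results 8 passed (6.06%), against 2.74% over all genes. After cryo-injury 1 was higher and 7 were lower, where 1.49% and 1.24% of all results passed in each direction. Without the factor 27 of 132 passed, against 7.02% over all genes, and 7 passed in both fits. Under 2 factors 2 of 132 passed, against 1.09% over all genes. With the stricter filter, which removed flt4 and vegfc, 2 of 108 passed, against 2.58% over all genes that remained.

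In SF, cdh5, tie1 and kdr were lower at 3 dpci than at 3 dps. Cdh5 averaged 106.7 CPM in uninjured SF ventricles, 175.7 CPM at 3 dps and 98.2 CPM at 3 dpci. Its change was thus set against a sham mean above the uninjured one. Uninjured means were 16.6 CPM for tie1 and 80.2 CPM for kdr, against 9.81 and 47.4 CPM at 3 dpci. Cdh5 had 76.9, 69.6, 89.9, 139.0 and 115.4 CPM at 3 dpci against 86.2, 172.6, 206.1, 222.7 and 190.9 CPM at 3 dps, a log2 change of -1.20 (SE 0.25, adjusted p = 0.000453; -0.84 without the factor, adjusted p = 0.0142). Tie1 had 9.22, 7.35, 11.2, 10.7 and 10.6 CPM at 3 dpci against 13.9, 10.5, 28.7, 21.2 and 21.0 CPM at 3 dps, a change of -1.16 (SE 0.30, adjusted p = 0.00605; -0.96 without the factor, adjusted p = 0.0126). Kdr had 25.0, 56.2, 38.1, 77.1 and 40.8 CPM at 3 dpci against 88.5, 93.7, 94.0, 73.8 and 82.9 CPM at 3 dps, a change of -0.82 (SE 0.22, adjusted p = 0.00873; -0.87 without the factor, adjusted p = 0.00145). The groups overlapped through 1 library in each gene, a sham library for cdh5 and tie1 and a 3 dpci library for kdr. The cdh5 call was lost in 3 of 13 alternatives (2 factors, the stricter filter, and only the groups compared). Cdh5 ranged from -1.55 to -0.59 (log2) over all 13, with an adjusted p of up to 0.519. That of tie1 was lost in 4 of 13 alternatives (2 factors, the stricter filter, only the groups compared, and without replicate 3). Tie1 ranged from -1.33 to -0.58 (log2) over all 13, with an adjusted p of up to 0.673. That of kdr was lost in 5 of 13 alternatives (2 factors, the stricter filter, only the groups compared, and without replicate 1 or 5). Kdr ranged from -1.04 to -0.53 (log2) over all 13, with an adjusted p of up to 0.578. At 7 dpci cdh5 lay above uninjured ventricles without overlap in both populations. It had 135.0 to 272.7 against 56.7 to 134.5 CPM in SF, and 134.3 to 300.6 against 51.6 to 110.0 CPM in PC. In SF its libraries also lay above the uninjured ones at 14 and 30 dpci. None of these cdh5 comparisons passed with the factor. At 7 dpci in both populations and at 14 dpci in SF, the factor did not overlap with that of the uninjured libraries. There the fit that holds it can hardly tell it from the change, so a rise of cdh5 is not shown to be absent.

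Pecam1 and vegfab followed in the fit without the factor only. Pecam1 averaged 3.8 ± 1.15 CPM at 3 dpci against 12.8 ± 2.1 CPM at 3 dps in SF (SD, n = 5 each), and passed only without the factor (log2 -1.74, adjusted p = 0.00623; -1.27 with it, adjusted p = 0.11). Vegfab averaged 5.42 ± 2.86 CPM at 3 dpci against 15.7 ± 1.48 CPM at 3 dps, and passed only without the factor (log2 -1.52, adjusted p = 0.0051; -0.98 with it, adjusted p = 0.157). Markers of other cells moved at this time: summed leukocyte markers were 1035 to 1731 CPM at 3 dpci against 712.1 to 892.6 CPM at 3 dps in SF, and summed cardiomyocyte markers 14244 to 31486 CPM against 33221 to 48521 CPM. Skeletal muscle markers summed to 973.8 to 2252 CPM against 4158 to 4881 CPM and mural and smooth muscle markers to 793.0 to 1031 CPM against 1115 to 1848 CPM. Within the skeletal muscle list, ckma averaged 740.4 CPM at 3 dpci against 2400 CPM at 3 dps, and ckmb 232.9 against 1055 CPM. The markers mylpfb and pvalb2 averaged 1.42 and 1.06 CPM at 3 dpci. The sum thus largely followed ckma and ckmb and does not measure skeletal muscle alone. Their part in the changes of the members was not tested.

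In PC, cdh5 averaged 83.6 ± 22.7 CPM at 3 dpci against 109.9 ± 13.5 CPM at 3 dps (SD, n = 5 each) and kdr 50.5 ± 12.8 against 55.4 ± 8.33 CPM, and neither passed. Vegfab was lower at 3 dpci in PC too, at 2.31 to 8.63 CPM against 8.82 to 26.3 CPM at 3 dps. These groups did not overlap, and vegfab did not pass there with the factor. Pecam1 averaged 4.1 CPM at 3 dpci and 4.91 CPM at 3 dps in PC. Tek passed in PC at 6 hpci, with 37.4, 39.2, 48.2, 25.9 and 59.8 CPM at 6 hpci against 96.8, 70.2, 87.5, 290.8 and 74.8 CPM at 6 hps. The groups did not overlap and the log2 change was -1.59 (SE 0.30, adjusted p = 0.000205; -1.55 without the factor, adjusted p = 0.000168). Without replicate 4 of every group the tek change was -0.88 (adjusted p = 0.351), and with 2 factors -1.22 (adjusted p = 0.0633). Uninjured PC ventricles averaged 42.3 CPM of tek, against 42.1 CPM at 6 hpci and 124.0 CPM at 6 hps. The change was thus set against a raised sham level, and the 6 hpci mean lay near the uninjured one.

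Tie1 was lower in PC at 1 dpci than in sham ventricles and at 7 dpci than in uninjured ventricles. At 1 dpci it had 11.9, 10.9, 13.7, 9.39 and 13.1 CPM against 37.5, 25.2, 15.3, 21.4 and 22.3 CPM at 1 dps, with no overlap, a log2 change of -1.25 (SE 0.29, adjusted p = 0.00733; -1.05 without the factor, adjusted p = 0.00691). At 7 dpci the tie1 values were 17.8, 15.0, 22.8, 11.9 and 17.7 CPM against 33.3, 40.0 and 55.4 CPM in uninjured PC ventricles, also with no overlap, a change of -1.77 (SE 0.39, adjusted p = 0.00256; -1.35 without the factor, adjusted p = 0.000445). The uninjured PC mean of 42.9 CPM was the highest tie1 mean of the 20 groups. PC sham ventricles averaged 20.9, 24.4 and 15.4 CPM at 6 hps, 1 dps and 3 dps, against 17.1 CPM at 7 dpci. With no sham group at 7 days, cryo-injury and the operation itself cannot be told apart there. The tie1 call at 1 dpci was lost in 3 of 13 alternatives (2 factors, the stricter filter, and without replicate 1). Tie1 ranged from -1.51 to -0.84 (log2) over all 13, with an adjusted p of up to 0.386. The one at 7 dpci was lost in 3 of 13 alternatives (2 factors, the stricter filter, and only the groups compared). Tie1 ranged from -2.36 to -1.24 (log2) over all 13, with an adjusted p of up to 0.785. Summed cardiomyocyte markers in PC were 17546 to 34147 CPM at 1 dpci against 41124 to 53138 CPM at 1 dps, and 10621 to 24364 CPM at 7 dpci against 41116 to 41768 CPM in uninjured ventricles. Summed epicardium and fibroblast markers were 1918 to 3310 CPM at 7 dpci against 447.8 to 567.8 CPM in uninjured ventricles. The part of these cells in the tie1 changes was not tested. In SF tie1 averaged 18.6 ± 4.74 CPM at 7 dpci (SD, n = 5) and 16.6 ± 2.8 CPM in uninjured ventricles (SD, n = 3) and did not pass. Kdrl at 1 dpci in PC averaged 21.1 ± 7.22 CPM against 37.3 ± 15.9 CPM at 1 dps, and passed only with the factor (log2 -1.33, SE 0.36, adjusted p = 0.0257; -0.84 without it, adjusted p = 0.14). This call was lost in 7 of 13 alternatives (no factor, 2 factors, the stricter filter, and without replicate 1, 2, 3 or 4). Kdrl ranged from -2.19 to -0.83 (log2) over all 13, with an adjusted p of up to 0.545.

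The single member result that was higher after cryo-injury was vegfc in PC at 6 hpci. The libraries held 6, 3, 0, 10 and 3 reads at 6 hpci and none at 6 hps. With 3 reads over the sham group as the floor, vegfc was 6.67-fold higher (edgeR adjusted p = 0.0442, and 0.0123 without the factor). This fold leaves out the counting error of the 22 reads at 6 hpci, so the difference can be smaller. Without replicate 4 of every group, which held the library with 10 reads, the adjusted p was 0.441, and the call was also lost without replicate 1 or 5, with 2 factors, with no filter and in DESeq2. In PC vegfc also had 10 reads in all at 1 dpci and 8 at 3 dpci, against none at 1 dps and 3 dps, and neither comparison passed.

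The ligand vegfab had low levels at 7 dpci in both populations. In SF it had 5.52, 6.86, 5.16, 10.9 and 13 CPM at 7 dpci against 19.6, 36.3 and 78.8 CPM in uninjured ventricles, and passed only without the factor (log2 -2.43, adjusted p = 3.73e-06; -0.98 with it, adjusted p = 0.458). In PC vegfab had 4.36, 2.83, 1.98, 3.58 and 3.87 CPM at 7 dpci against 21.7, 11.7 and 19.8 CPM in uninjured ventricles, and passed only without the factor (log2 -2.35, adjusted p = 0.00015; -1.17 with it, adjusted p = 0.366). The groups did not overlap in either population. As the factor did not overlap between these groups either, a fit that holds it can hardly tell it from the change. The uninjured SF mean of 44.9 CPM was the highest vegfab mean of the 20 groups. SF libraries at 3 dps (13.9 to 17.5 CPM) also lay wholly below the uninjured ones, and PC sham means were 10.6 to 15.4 CPM. With no sham group at 7 days, cryo-injury and the operation itself cannot be told apart here. Summed cardiomyocyte markers in SF were 13986 to 25813 CPM at 7 dpci against 31464 to 37451 CPM in uninjured ventricles, and those of PC are given above. Their part in the vegfab levels was not tested.

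Vegfaa, the other Vegfa gene, averaged 66.0 ± 8.04, 28.4 ± 8.66, 21.8 ± 7.51, 30.3 ± 14.3, 51.9 ± 16.3 and 66.2 ± 11.4 CPM in SF at 6 h and 1, 3, 7, 14 and 30 days after cryo-injury (SD, n = 5 each). In PC the vegfaa averages at the same times were 36.1 ± 7.24, 28.7 ± 4.74, 26.0 ± 4.24, 20.8 ± 6.6, 24.8 ± 12.5 and 51.0 ± 6.22 CPM (SD, n = 5 each). The uninjured SF ventricles spread from 12.8 to 121.3 CPM, a range that holds all of the SF averages. The uninjured PC ventricles spread from 23.3 to 36.4 CPM, and the PC averages at 7 and 30 dpci lay outside this range. In PC vegfaa did not overlap with its control at 30 dpci (44.2 to 57.7 CPM). Nor did it at 3 dpci (21.5 to 31.8 CPM, against 39.1 to 60.8 CPM at 3 dps). No comparison of vegfaa after cryo-injury with its control passed in either fit.

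**Figure D4:**
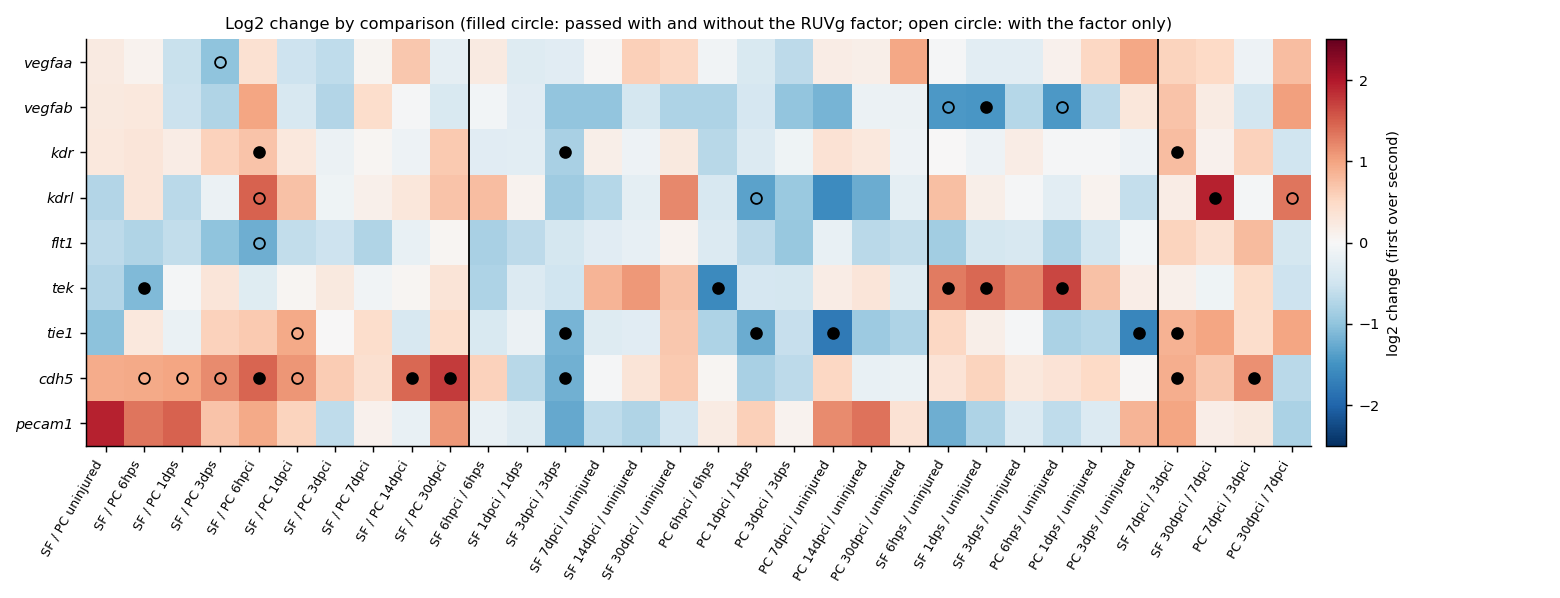
Log2 change (colour) of the 9 members with a mean above 5 CPM (rows) in 32 comparisons (columns: SF over PC, cryo-injury over sham or uninjured, sham over uninjured, and later over earlier cryo-injury). Filled circles mark results that passed with and without the RUVg factor and open circles those that passed with it only, and the cdh5 row is positive in all 10 comparisons of SF with PC.

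Later times after cryo-injury were set against earlier ones, 7 against 3 days and 30 against 7 days. Of 44 member results 6 passed (13.6%), against 3.91% over all genes, and all 6 were higher at the later time, where 2.07% of all results passed. Without the factor 11 of 44 passed, against 8.36% over all genes, and 5 passed in both fits. Cdh5 in SF had 147.2, 272.7, 248.3, 197.4 and 135.0 CPM at 7 dpci against 76.9, 69.6, 89.9, 139.0 and 115.4 CPM at 3 dpci, a log2 change of 0.90 (SE 0.23, adjusted p = 0.00709; 1.03 without the factor, adjusted p = 0.004). In PC cdh5 had 236.7, 194.3, 300.6, 134.3 and 237.8 CPM at 7 dpci against 94.4, 109.5, 69.2, 92.6 and 52.3 CPM at 3 dpci, a change of 1.14 (SE 0.24, adjusted p = 0.00151; 1.40 without the factor, adjusted p = 0.000123). The PC groups did not overlap, and in SF 1 library of each time did. Without replicate 3 of every group both cdh5 calls were lost (SF 0.66, adjusted p = 0.149; PC 0.90, adjusted p = 0.0602), and the SF call was also lost with 2 factors (0.52, adjusted p = 0.342) and without replicate 2 (0.53, adjusted p = 0.3).

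Tie1 and kdr rose in SF over the same days. Tie1 had 15.2, 24.3, 23.2, 16.6 and 14.0 CPM at 7 dpci, all above the 9.22, 7.35, 11.2, 10.7 and 10.6 CPM at 3 dpci, a log2 change of 0.87 (SE 0.28, adjusted p = 0.0369; 0.93 without the factor, adjusted p = 0.0271). Kdr averaged 80.5 ± 21.0 CPM at 7 dpci against 47.4 ± 19.9 CPM at 3 dpci (SD, n = 5 each), a change of 0.78 (SE 0.20, adjusted p = 0.00762; 0.76 without the factor, adjusted p = 0.0113). The tie1 call was lost in 6 of 13 alternatives (2 factors, only the groups compared, and without replicate 1, 2, 3 or 5). Tie1 ranged from 0.50 to 1.01 (log2) over all 13, with an adjusted p of up to 0.528. That of kdr was lost in 4 of 13 alternatives (2 factors, only the groups compared, and without replicate 1 or 3). Kdr ranged from 0.58 to 0.92 (log2) over all 13, with an adjusted p of up to 0.244. In PC the means moved the same way from 3 to 7 dpci, from 11.4 to 17.1 CPM for tie1 and from 50.5 to 74.2 CPM for kdr. Neither gene passed there in either fit, and whether SF and PC differed in this step was not tested. Summed epicardium and fibroblast markers, all 10 past the filter, were 1912 to 3004 CPM at 7 dpci against 749.2 to 1233 CPM at 3 dpci in SF, and 1918 to 3310 CPM against 599.0 to 1357 CPM in PC. Skeletal muscle markers in SF summed to 2667 to 8723 CPM at 7 dpci against 973.8 to 2252 CPM at 3 dpci. Of these, mylpfb ran from 15.7 to 1556 CPM and pvalb2 from 2.18 to 681.5 CPM among SF libraries at 7 dpci. Their means at 3 dpci were 1.42 and 1.06 CPM, so both genes were higher at 7 dpci and very uneven between ventricles. Their part in these changes was not tested.

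Kdrl rose in SF between 7 and 30 days. It had 36.4, 26.5, 55.0, 47.6 and 25.4 CPM at 30 dpci, all above the 24.8, 20.1, 13.7, 19.2 and 16.6 CPM at 7 dpci, a log2 change of 1.92 (SE 0.44, adjusted p = 0.0055; 1.01 without the factor, adjusted p = 0.0351). The call was lost in 3 of 13 alternatives (the stricter filter, only the groups compared, and without replicate 3). Kdrl ranged from 0.95 to 2.26 (log2) over all 13, with an adjusted p of up to 1.0. In the same comparison summed cardiomyocyte markers were 35260 to 57486 CPM at 30 dpci against 13986 to 25813 CPM at 7 dpci, and epicardium and fibroblast markers 611.2 to 998.9 CPM against 1912 to 3004 CPM, and their part in the kdrl change was not tested. In PC kdrl averaged 41.6 ± 7.84 CPM at 30 dpci against 27.4 ± 6.69 CPM at 7 dpci (SD, n = 5 each), passed only with the factor (log2 1.33, SE 0.40, adjusted p = 0.0332; 0.63 without it, adjusted p = 0.258), and had a change of -0.07 when only these groups were fitted. The factor ran from -0.089 to -0.051 at 30 dpci and from -0.203 to -0.149 at 7 dpci, so that fit can hardly tell it from time. The kdrl call in PC was lost in 8 of 13 alternatives (no factor, 2 factors, the stricter filter, only the groups compared, and without replicate 1, 2, 3 or 4). Kdrl ranged from -0.07 to 1.57 (log2) over all 13, with an adjusted p of up to 1.0. Both marker sums moved without overlap in PC too, cardiomyocyte markers at 31946 to 47896 CPM at 30 dpci against 10621 to 24364 CPM at 7 dpci, and epicardium and fibroblast markers at 782.0 to 1087 CPM against 1918 to 3310 CPM. The cdh5 libraries of PC had 114.4, 100.5, 76.9, 82.8 and 87.3 CPM at 30 dpci, all below its 7 dpci libraries, and passed only without the factor (log2 -1.26, adjusted p = 0.000124; -0.67 with it, adjusted p = 0.201). Vegfaa passed only without the factor (log2 1.13, adjusted p = 0.00303; 0.49 with it, adjusted p = 0.611) in SF, and likewise in PC, where the values were 1.30 (adjusted p = 0.00111) without it and 0.78 (adjusted p = 0.237) with it.

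Results for 3 of the members passed after the sham operation alone. Of 66 results for sham against uninjured ventricles 7 passed (10.6%), against 6.16% over all genes. After the sham operation 3 were higher and 4 lower, where 3.15% and 3.01% of all results passed in each direction. Without the factor 8 of 66 passed, against 5.97% over all genes, and 5 passed in both fits. These comparisons share the 3 uninjured libraries of a population with those of cryo-injury at 7, 14 and 30 days.

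Tek rose after the sham operation in both populations. In SF it had 53.9, 15.4, 87.5, 54.6 and 82.4 CPM at 1 dps against 17.0, 24.5 and 25.2 CPM in uninjured ventricles, a log2 change of 1.44 (SE 0.39, adjusted p = 0.00629; 1.41 without the factor, adjusted p = 0.00764). The groups overlapped through the library at 15.4 CPM, and this was the only one of the 35 passed member results that also passed in all 13 alternatives run. At 6 hps tek in SF averaged 50.3 ± 19.2 CPM (SD, n = 5) against 22.2 ± 4.56 CPM in uninjured ventricles (SD, n = 3), a change of 1.30 (SE 0.41, adjusted p = 0.0296; 1.19 without the factor, adjusted p = 0.0418). This call was lost in 4 of 13 alternatives (only the groups compared and without replicate 1, 3 or 5). Tek ranged from 1.04 to 1.95 (log2) over all 13, with an adjusted p of up to 0.0984. The uninjured SF mean of 22.2 CPM was the lowest tek mean of the 20 groups. SF libraries at 3 dps and at 7, 14 and 30 dpci also lay wholly above the uninjured ones, though none of these comparisons passed with the factor. A low level in the 3 uninjured ventricles and a rise after the operation cannot be told apart. In PC tek had 96.8, 70.2, 87.5, 290.8 and 74.8 CPM at 6 hps, all above the 38.3, 35.0 and 53.7 CPM of uninjured ventricles, a change of 1.67 (SE 0.39, adjusted p = 0.00218; 1.54 without the factor, adjusted p = 0.00285). The PC call was lost in 1 of 13 alternatives, without replicate 4, where the change was 0.96 (adjusted p = 0.0823). No uninjured library carries that number.

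Vegfab and tie1 fell after the sham operation. Vegfab in SF had 12.5, 15.4, 9.01, 19.6 and 30.7 CPM at 1 dps against 19.6, 36.3 and 78.8 CPM in uninjured ventricles, with overlap, a log2 change of -1.45 (SE 0.39, adjusted p = 0.00565; -1.35 without the factor, adjusted p = 0.0174). It was lost with the stricter filter (-0.24, adjusted p = 0.794), with 2 factors (-0.23, adjusted p = 1.0), and without replicate 3 (-0.93, adjusted p = 0.408) or 4 (-0.87, adjusted p = 0.177). At 6 hps vegfab in SF passed only with the factor (log2 -1.43, SE 0.42, adjusted p = 0.0173; -0.87 without it, adjusted p = 0.202), and in PC it passed only with the factor (log2 -1.44, SE 0.48, adjusted p = 0.0496; -0.72 without it, adjusted p = 0.45). The SF call was lost in 7 of 13 alternatives (no factor, 2 factors, the stricter filter, and without replicate 2, 3, 4 or 5). Vegfab ranged from -2.16 to -0.23 (log2) over all 13, with an adjusted p of up to 1.0. The PC call was lost in 9 of 13 alternatives (no factor, 2 factors, the stricter filter, only the groups compared, and without replicate 1, 2, 3, 4 or 5). Vegfab ranged from -1.78 to -0.10 (log2) over all 13, with an adjusted p of up to 1.0. Tie1 in PC had 10.7, 17.2, 15.7, 18.9 and 14.5 CPM at 3 dps against 33.3, 40.0 and 55.4 CPM in uninjured ventricles, with no overlap, a change of -1.63 (SE 0.31, adjusted p = 0.000886; -1.47 without the factor, adjusted p = 0.000875). It was lost in 2 of 13 alternatives (only the groups compared and without replicate 5). Tie1 ranged from -1.75 to -1.29 (log2) over all 13, with an adjusted p of up to 0.35. Skeletal muscle markers did not overlap between sham and uninjured ventricles for SF at 1 dps (3461 to 5590 CPM against 6013 to 8542 CPM) or PC at 3 dps (2931 to 4830 CPM against 5556 to 5920 CPM). Of the SF sums, ckma alone averaged 2805 CPM at 1 dps and 5406 CPM in uninjured ventricles. Leukocyte markers did not overlap for SF at 1 dps (409.7 to 614.6 CPM against 726.9 to 1019 CPM). Their part in these changes was not tested.

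Whether SF and PC differed in their response was tested by the interaction, the SF change minus the PC change. None of 66 member results passed with edgeR with the factor or without it, against 0.474% and 0.25% of results over all genes. With the factor 13 had an unadjusted p under 0.05. The share of all genes at that threshold was not taken, so nothing is concluded from this count. DESeq2 passed 1, tie1 at 7 dpci, against 1.11% over all genes. In edgeR the tie1 value at 7 dpci was 1.45 (SE 0.44, adjusted p = 0.0779) and at 30 dpci 1.45 (SE 0.44, adjusted p = 0.102). A member that passed in one population and not in the other was thus not shown to respond differently.

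**Figure D5:**
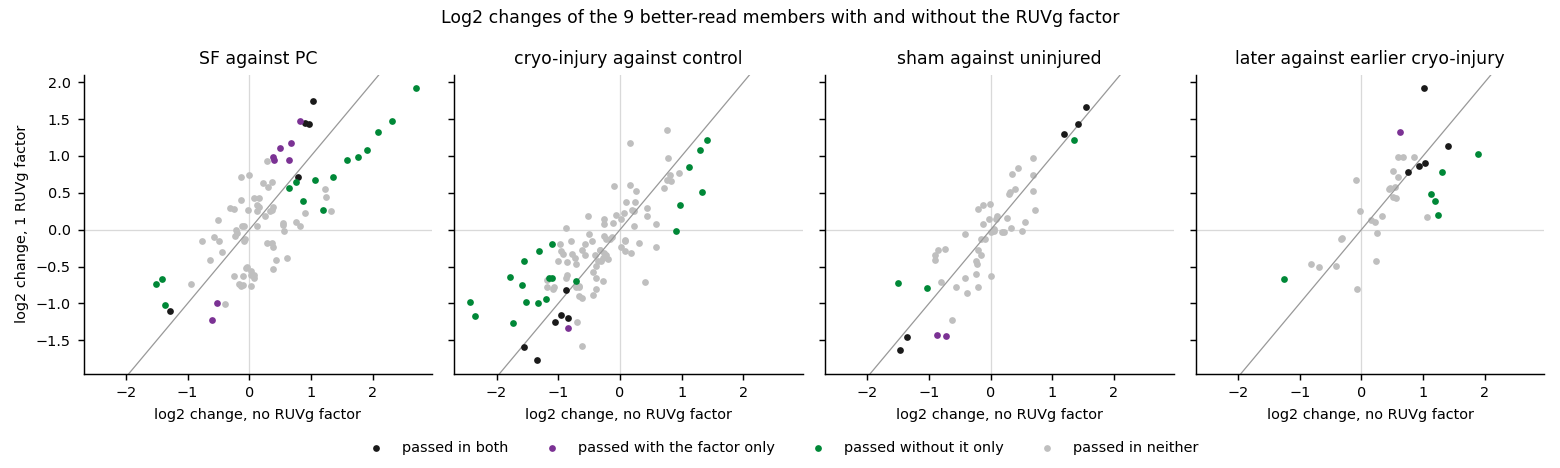
Log2 change of the 9 members with a mean above 5 CPM in the fit with 1 RUVg factor (vertical axis) against the fit without it (horizontal axis), 1 panel for each of 4 kinds of comparison, with the line of equal values; colours mark results that passed in both fits, with the factor only or without it only. Over the 418 results of all 11 members, 35 passed with the factor (8.37%), 70 without it (16.7%) and 23 in both. Shares over all genes, by kind of comparison and with the interaction, were 0.474 to 8.48% with the factor. Without it they were 0.25 to 8.36%, and the share that passed in both fits was not taken.

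Other genes of the pathway were read from lists chosen by function. Of 6 further ligand and co-receptor genes of the Vegf family, 10 of 60 results passed between SF and PC, all higher in SF (16.7%, against 4.49% of all genes higher and 8.48% in either direction). Without the factor 9 passed, all higher (15.0%, against 4.34% of all genes higher). Nrp1a, which encodes the co-receptor neuropilin 1, averaged 81.2 ± 30.2 CPM in SF and 31.4 ± 5.92 CPM in PC at 6 hps (SD, n = 5 each; log2 1.44, adjusted p = 0.003; 1.37 without the factor, adjusted p = 0.000354). PLXND1, the semaphorin receptor plexin D1, averaged 137.4 ± 9.06 CPM in SF and 59.2 ± 14.6 CPM in PC in uninjured ventricles (SD, n = 3 each; log2 1.31, adjusted p = 0.000908; 1.21 without the factor, adjusted p = 0.000464).

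Among 18 endothelial junction and surface genes other than the members, 36 of 180 results passed between the populations, 15 higher and 21 lower in SF (20%, against 8.48% over all genes). In the fit without the factor 27 were higher and 15 lower (23.3%, against 8.25%). Esama, a junction protein, averaged 47.9 ± 5.71 CPM in SF and 12.8 ± 5.0 CPM in PC at 6 hpci (SD, n = 5 each; log2 1.52, adjusted p = 9.32e-06; 1.92 without the factor, adjusted p = 8.3e-10). Tjp1a, the tight junction protein ZO-1, averaged 48.6 ± 9.52 CPM in SF and 11.2 ± 4.54 CPM in PC at this time (log2 1.98, adjusted p = 2.82e-07; 2.13 without the factor, adjusted p = 3.08e-10). Ramp2, a partner of the adrenomedullin receptor, went the other way at 7 dpci, with 68.5 ± 14.3 CPM in SF and 154.4 ± 31.8 CPM in PC (log2 -1.32, adjusted p = 1.68e-05; -1.17 without the factor, adjusted p = 1.24e-05).

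After cryo-injury, 5 of 216 results of the same 18 genes passed, all lower (2.31%, against 2.74% of all genes in either direction and 1.24% lower), and without the factor 20, all lower (9.26%, against 7.02% in either direction and 3.36% lower). Plvapb, which forms the diaphragms of endothelial pores, averaged 68.5 ± 23.2 CPM at 1 dpci against 272.5 ± 58.1 CPM at 1 dps in PC (SD, n = 5 each; log2 -1.45, adjusted p = 0.000833; -1.99 without the factor, adjusted p = 5.51e-07). In the same comparison dll4, the Notch ligand of tip cells, averaged 5.94 ± 1.0 against 28.8 ± 6.81 CPM (log2 -1.64, adjusted p = 0.0121; -2.26 without the factor, adjusted p = 2.39e-05). Notch1b, a receptor of Dll4, averaged 114.3 ± 9.95 against 259.4 ± 61.0 CPM (log2 -1.26, adjusted p = 0.000833; -1.18 without the factor, adjusted p = 0.000172). APLN, the peptide apelin of sprouting vessels, rose in SF, with 118.3 ± 62.1 CPM at 6 hpci against 31.4 ± 6.4 CPM at 6 hps (log2 1.84, adjusted p = 0.000454; 1.91 without the factor, adjusted p = 8.14e-05). Dll4, notch1b and APLN are on the list of 14 sprouting, tip and arterial genes. In that list 9 of 168 results passed after cryo-injury, 2 higher and 7 lower (5.36%, against 2.74%). Without the factor 20 passed, 7 higher and 13 lower (11.9%, against 7.02%).

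Likeness of pattern was measured as Spearman's rho of group means over the 20 groups, among 7939 genes with a mean of at least 5 CPM, and is a description only, since groups share a population and differ in depth. The gene ranked nearest was ckmb for vegfab (rho 0.937), pecam1's was atf5b (0.914), kdr's snx33 (0.902), flt4's cyp20a1 (0.885), flt1's rasgef1ba (0.877), vegfaa's got1 (0.862), tie1's myl9b (0.779), cdh5's daam1a (0.774), vegfc's rgs5b (0.708) and tek's kctd9a (0.698). For kdrl the nearest gene has no symbol in the annotation, and esamb, a junction protein, came next (rho 0.856). No other member was among the 5 nearest of any member.

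Across the 96 libraries Pearson's r of log2(CPM + 1) was 0.55 for cdh5 with kdr, and 0.49 after each library was centred on its group mean. For kdrl with tie1 it was 0.48 and 0.44 after centring, and for vegfaa with vegfab 0.54 and 0.31. Pecam1 with cdh5 had 0.19 and -0.22 after centring. These are descriptions without a test, as libraries share depth and population.

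The 11 genes lie on 5 chromosomes and 4 unplaced scaffolds of the assembly Mexican tetra 2.0. Vegfaa is on chromosome 9 (32199034 to 32222532, plus strand) and vegfab on scaffold APWO02002046.1 (4649 to 43132, minus strand). Kdr and flt1 are on chromosome 3 (kdr 64332346 to 64370316, minus strand; flt1 21897173 to 21933988, plus strand), and kdrl and flt4 on chromosome 24 (kdrl 45419382 to 45526718, minus strand; flt4 17921930 to 17962987, plus strand). Tie1 is on chromosome 13 (41272990 to 41307650, plus strand) and pecam1 on chromosome 7 (19226232 to 19252297, plus strand). Cdh5 (APWO02000043.1, 1541900 to 1568097, plus strand), tek (APWO02000155.1, 2046424 to 2078977, minus strand) and vegfc (APWO02000135.1, 561479 to 617580, plus strand) are on scaffolds.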

How the data were processed

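RNA of 96 single ventricles was sequenced with the QuantSeq 3′ kit (FWD). The deposited counts are whole reads per gene that the authors made with bcl2fastq 2.20.0, Trim Galore 0.6.4 and STAR 2.7.6a on Mexican tetra 2.0, with an extended Ensembl annotation of 27420 genes, 8721 of them with their own models. Strand use and the treatment of reads that map to several genes are not given in the sources used here. A second deposited table of the authors holds rlog values on a log2 scale for 16205 genes, in which 1 column holds values beyond that scale and is treated as a score, and no test used it.

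The 18763 genes that reached 1 CPM in any library were fitted on their counts in edgeR 4.0.16 (R 4.3.3) by the quasi-likelihood test, with TMM scaling, 20 groups and 1 RUVg factor from 9381 control genes, as the study's own model held such a factor. P-values were adjusted by Benjamini-Hochberg within each of 38 comparisons and measure the spread between ventricles. CPM are TMM-scaled. Alternatives were the fit without the factor, 2 factors, DESeq2 1.42.0 and its size factors, other filters and a replicate block. Each replicate number was also left out in turn of every group that held it. Further fits were limited to the groups compared and kept the factor as estimated over all libraries. The test was checked on simulated counts for 1 comparison, SF over PC at 14 dpci, with 100 genes changed 2-fold and 100 changed 4-fold. It recovered 22% of the 2-fold and 86% of the 4-fold changes, with 5 false calls. A member difference near 2-fold that did not pass is thus not shown to be absent. The changed genes had a mean of at least 5 CPM, so the check does not cover flt4 or vegfc. The simulation took the factor as given, and no other gene received a population difference of its own. It therefore cannot show how far the factor and the population are told apart in the real data.

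All members are named. From each other list, up to 3 genes per kind of comparison with the smallest adjusted p among those with a fold above 2 could be named. The members, lists and rules were chosen with earlier results of these data known. Each of the 186 pairs of libraries within a group differed by more than sampling noise.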

Additional observations from a re-analysis of the deposited data

Results flagged for a closer look

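In 11 of the 162 groups of 5 ventricles examined, 1 library of a member lay far from the 4 others by Dixon's test at the 95% level, which chance gives in about 1 of 20 groups. For tek, the PC library of replicate 4 at 6 hps had 290.8 CPM, with the others at 70.2 to 96.8, and the SF library of replicate 3 at 14 dpci 100.7 CPM, with the others at 30.8 to 49.3. For pecam1, low libraries were SF replicate 1 at 6 hpci with 4.08 CPM, with the others at 11.1 to 13.7, and SF replicate 3 at 1 dpci with 3.71 CPM, with the others at 8.79 to 10.5. For vegfaa, high libraries were PC replicate 5 at 6 hps with 66.0 CPM, with the others at 35.6 to 39.1, and PC replicate 1 at 1 dpci with 37.1 CPM, with the others at 25.5 to 27.3. For kdr, PC replicate 3 at 1 dps had 77.2 CPM, with the others at 55.4 to 60.1, and SF replicate 1 at 6 hpci 55.9 CPM, with the others at 68.1 to 71.9. For cdh5, PC replicate 4 at 1 dps had 124.9 CPM, with the others at 99.1 to 105.5. For tie1, PC replicate 3 at 6 hpci had 7.11 CPM, with the others at 13.8 to 15.9. For flt1, PC replicate 2 at 3 dps had 25.8 CPM, with the others at 9.55 to 13.9.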

How the results depend on the processing

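The counts of passed member results are given in the order SF against PC (14), cryo-injury against control (8), sham against uninjured (7), later against earlier (6) and interaction (0). In the same order, each list of counts is followed by the percentages of all genes tested that passed in that fit, which in the reported fit were 8.48, 2.74, 6.16, 3.91 and 0.474%. Without the RUVg factor the counts were 24, 27, 8, 11 and 0 (8.25, 7.02, 5.97, 8.36 and 0.25%), with 2 factors 15, 2, 7, 3 and 1 (5.3, 1.09, 1.62, 1.65 and 0.619%), and under a stricter filter (10 counts or more in 5 libraries or more), which removed flt4 and vegfc, 19, 2, 7, 4 and 1 (16.9, 2.58, 10.3, 5.78 and 1.37%). Fits of only the groups compared gave 1, 7, 6, 2 and 2 (2.74, 1.64, 4.75, 2.29 and 1.24%), DESeq2 gave 13, 10, 7, 7 and 1 (9.48, 3.98, 7.56, 5.11 and 1.11%) and a replicate block 12, 9, 7, 6 and 0 (7.91, 2.64, 5.85, 3.88 and 0.388%). With 1 replicate number left out of every group that held it, the counts ran from 8 to 11 (4.17 to 6.78%), 5 to 15 (1.27 to 4.2%), 3 to 8 (2.46 to 5.08%), 1 to 7 (2.42 to 4.66%) and 0 to 1 (0.104 to 0.427%). Same-numbered libraries did not deviate together, since in 0 of 22 pairs of groups did every correlation exceed 0.1 (median 0.005 over 95 pairs of libraries). The block ended 3 of the 35 calls, all between SF and PC: tek at 6 hps (-0.98, adjusted p = 0.0744), vegfaa at 3 dps (-0.98, adjusted p = 0.057) and flt1 at 6 hpci (-1.21, adjusted p = 0.0518). Of 453 alternative values of the 35 passed results, 297 kept the call, 154 lost it and 2 changed sign, both when only the groups compared were fitted: tie1 SF over PC at 1 dpci (-0.05) and kdrl in PC at 30 over 7 dpci (-0.07). The causes were not tested. Leaving out libraries that go against their label was not run, as there were 0. Depth limits flt4, vegfc and pecam1, which had 111, 63 and 1228 reads in all, and 4 libraries held fewer than 1000000 counts.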

Other observations

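Other endothelial genes changed after the sham operation. Klf2a, an endothelial factor induced by blood flow, averaged 59.3 ± 17.1 CPM at 6 hps (SD, n = 5) against 222.6 ± 57.3 CPM in uninjured SF ventricles (SD, n = 3; log2 -2.33, adjusted p = 1.04e-06; -1.91 without the factor, adjusted p = 2.95e-05), and dll4, a Notch ligand, 22.9 ± 9.32 against 70.7 ± 10.1 CPM (log2 -2.30, adjusted p = 2.26e-05; -1.62 without the factor, adjusted p = 0.00347). Of 16 endothelial transcription factor genes 8 of 96 sham results passed, 2 higher and 6 lower (8.33%), and of 8 endocardium genes 6 of 48, all lower (12.5%), against 6.16% of all genes in either direction and 3.01% lower. Klf2a is on both lists.

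Lyve1a, a marker of lymphatic endothelium, at 14 dpci averaged 26.3 ± 16.3 CPM in SF and 174.1 ± 103.5 CPM in PC (SD, n = 5 each; log2 -2.88, adjusted p = 4.03e-05; -2.73 without the factor, adjusted p = 3.2e-05). In SF it averaged 5.12 ± 2.41 CPM at 3 dpci against 35.4 ± 24.6 CPM at 3 dps (log2 -2.62, adjusted p = 0.00252; -2.78 without the factor, adjusted p = 0.000246). Of 6 lymphatic genes other than the members, 5 of 60 results passed between the populations, all lower in SF (8.33%), near the 8.48% of all genes that passed in either direction, with 3.99% lower.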
